A study of Mus with 8 samples.

Results

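The Krüppel-like factor genes Klf2, Klf3, Klf4, Klf5, Klf6, Klf7, Klf9, Klf10, Klf13 and Klf15 were followed through the first day of fat cell differentiation. They were taken by name from a count table of 24013 mouse genes, as members of the family with a role or a candidate role in adipogenesis. All 10 were in the table. A filter on low counts kept 9 of them among the 13339 genes tested, and Klf15 was left out of the test with between 0 and 7 counts per library.

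RNA was sequenced from 3T3-L1 cells, an established mouse preadipocyte line that turns into fat cells under hormones. C cells carried a lentiviral scrambled shRNA and P cells a lentiviral shRNA that down-regulates Prep1 (gene Pknox1), a homeodomain transcription factor. Both were sampled at day −2, before induction, in DMEM with BCS serum, and at day 1, in induction medium with the glucocorticoid dexamethasone (1 µM), the phosphodiesterase inhibitor IBMX (0.5 mM), which keeps cAMP from being degraded, insulin (1 µg/ml) and 10% FBS. Each of the 4 conditions had 2 replicas. The day, the hormones and the change of serum cannot be told apart in a comparison of day 1 with day −2. Whether the infected cells were a pool or 1 clone was not given in the sources used here.

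Krüppel-like factors are transcription factors with C2H2 zinc fingers at the carboxyl terminus that bind GC boxes and CACCC boxes. The fingers are alike across the family, while the rest of the protein differs and recruits either activators or repressors. In preadipocytes some members are known to promote differentiation, by raising the C/EBP factors or Pparg, the master regulator of fat cells, and others to restrain it.

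The libraries held 20428816 to 27614353 counts, so that 3 counts corresponded to 0.107 to 0.160 CPM (the usual depth-scaled unit of counts, here on library sizes scaled by edgeR's TMM factors). This floor covers counting error only. The replicas of P cells at day −2 stood further apart than those of the other conditions, with an SD of their log2 difference of 0.795 over 5600 well-expressed genes against 0.121 to 0.261. Pknox1 was lower in P cells, at 17.3 and 18.3 CPM against 28.1 and 26.5 in C cells at day −2 and at 23.6 and 23.8 against 38.1 and 36.5 at day 1. Its log2 ratios were −0.62 (adjusted p = 0.0558) and −0.65 (adjusted p = 0.0575). The summed 6 preadipocyte and fibroblast markers lay at 7749 to 8459 CPM in C cells and at 10672 and 41862 CPM in the P replicas of day −2, the latter in replica 1, and at 11413 to 14359 and 9844 to 10077 CPM at day 1. Col1a1 and Col3a1 made up most of each sum, at 23560 and 15766 CPM in replica 1 of P cells at day −2. The 6 did not move together. On induction in C cells Pdgfra (log2 1.91) and Dlk1 (1.05) were called higher and Pdgfrb (−1.58) lower. In P cells Pdgfra (1.84) and Dlk1 (1.70) were called higher and Pdgfrb (−2.85), Thy1 (−2.05) and Col1a1 (−3.23) lower. The summed 6 adipocyte markers lay at 2.43 to 2.70 CPM in C cells and 22.4 to 33.9 CPM in P cells at day −2, and at 2.05 to 2.19 and 129.7 CPM at day 1. Fabp4 made up most of the sum of P cells at day −2, at 28.4 and 19.8 CPM. On induction in C cells Fabp4 was called lower (log2 −1.01, adjusted p = 0.0602) and Cidec higher (1.59). In P cells all 5 tested were called higher, where 7.65% of all genes were. The summed macrophage and leukocyte markers were at 7.18 to 8.05 CPM in C cells at day −2 and at 3.60 to 5.84 CPM in the other conditions. Of these, Ptprc and Adgre1 had no more than 8 counts in a library, and Cd68 was above that. Itgam had 37 counts in replica 1 of P cells at day −2 and 2 to 9 in the other libraries, and was not tested. Csf1r had 40 to 144 counts at day −2 and 3 to 9 at day 1. Csf1r was called lower by induction in C cells (log2 −4.46) and in P cells (−2.63) and lower in P cells at day −2 (−1.55, adjusted p = 0.0799). Cd68 was called higher by induction in both (1.06 and 1.63). The muscle markers, at 3.28 to 6.66 CPM at day −2 and 0.654 to 1.39 CPM at day 1, were nearly all Des, with Myod1 and Myog at no more than 2 counts. Endothelial and epithelial markers summed to no more than 1.86 CPM. The part of these shifts in the values of the Klf genes was not tested. In a bulk sample, more cells of a type and more RNA per cell cannot be told apart.

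Induction raised Klf2 and Klf9 in C cells and Klf4, Klf5 and Klf9 in P cells. A gene was called when edgeR's quasi-likelihood test gave a Benjamini-Hochberg adjusted p under 0.1 over all genes tested and its ratio was over 2 or under 0.5. Thus 2 of the 9 tested members were called higher in C cells, where 10.7% of all genes were, and 3 of 9 in P cells, where 7.65% were. No member was called lower, against 9.68% and 10.4% of all genes. Without the threshold on the ratio, 5 members passed in C cells (35.6% of all genes did) and 3 in P cells (31.4%). The median log2 ratio of the 9 members was 0.86 in C and 0.40 in P cells, against −0.01 and 0.02 for all genes.

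**Figure D1:**
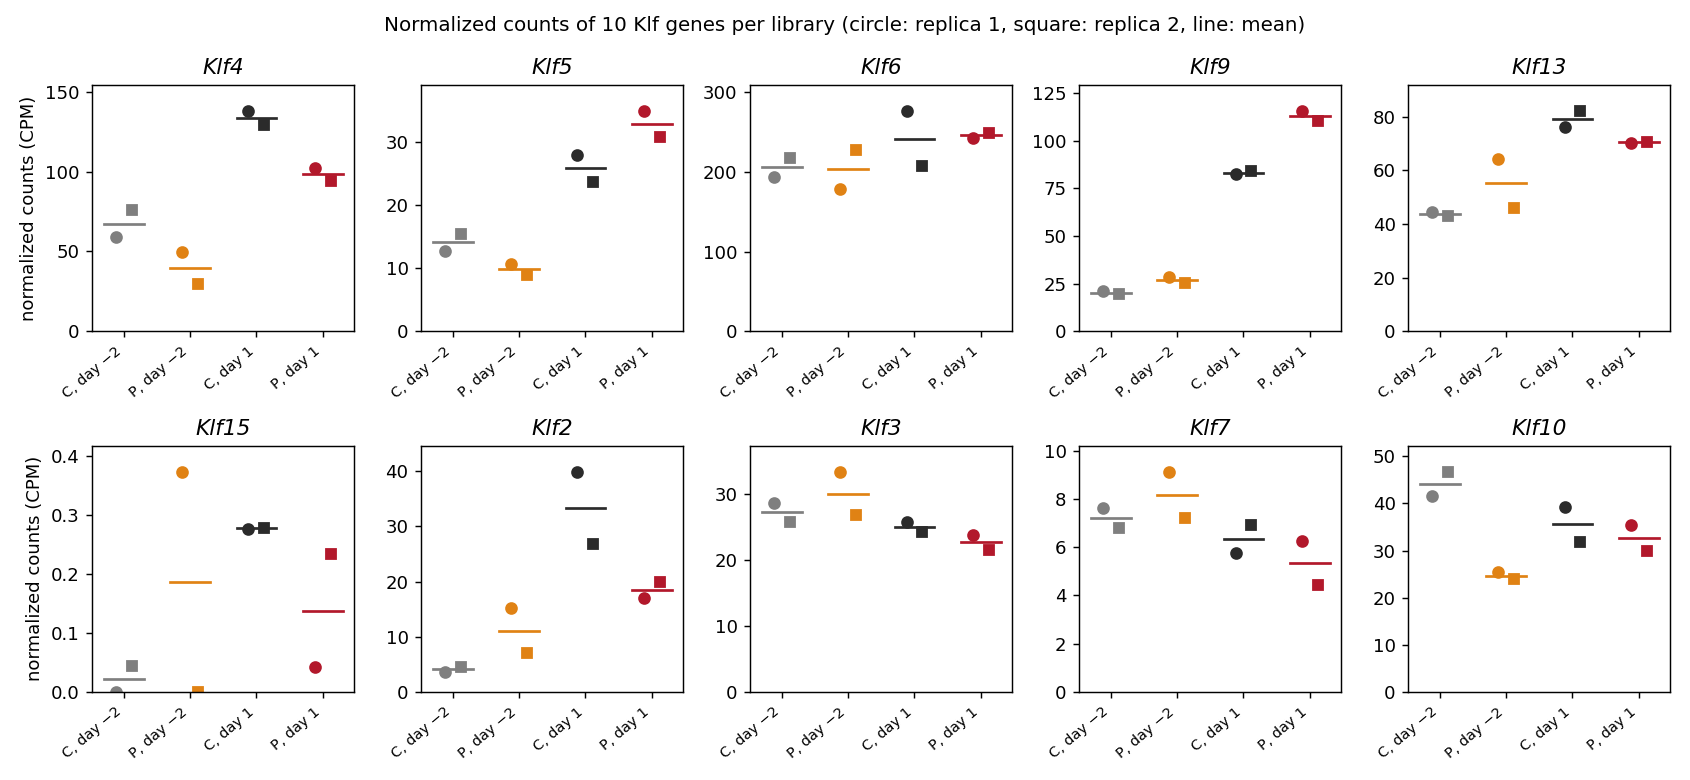
Normalized counts (CPM, vertical axis, a separate scale from 0 in each panel) of the 10 Klf genes in C and P cells at day −2 and day 1; circles and squares are replicas 1 and 2 and lines are condition means. The Klf9 libraries of day 1 lie between 82.6 and 115 CPM, all above those of day −2, while Klf15 stays under 0.4 CPM throughout.

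Among the promoting members, Klf9, a glucocorticoid-responsive factor that acts on the Pparg promoter, moved in the same way in both cell types. It was at 21.0 and 19.4 CPM in C cells and 28.5 and 25.2 CPM in P cells at day −2. At day 1 it was at 82.6 and 83.9 CPM in C cells and 115 and 111 CPM in P cells. None of the 4 conditions overlapped. Induction raised Klf9 by a log2 ratio of 2.04 ± 0.14 (SE) in C cells (4.11-fold, adjusted p = 0.000233) and of 2.07 ± 0.14 in P cells (4.21-fold, adjusted p = 0.00032). The 2 log2 ratios differed by 0.03 ± 0.20 (interaction, adjusted p = 0.926). The P libraries were above the C libraries on both days, with log2 ratios of 0.41 ± 0.14 (adjusted p = 0.135) and 0.44 ± 0.14 (adjusted p = 0.159), which did not pass the test. DESeq2 gave adjusted p-values of 0.0815 and 0.0771, under 0.1, with ratios short of the threshold.

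Klf4, an early factor that activates Cebpb together with Egr2, was at 59.2 and 75.9 CPM in C cells and 49.5 and 29.4 CPM in P cells at day −2. At day 1 it was at 138 and 129 CPM in C cells and 103 and 94.1 CPM in P cells. The conditions did not overlap, and the P libraries lay below the C libraries on both days. In P cells the induction ratio was 2.49-fold (log2 1.32 ± 0.26, adjusted p = 0.0147). In C cells it was 1.98-fold (log2 0.98 ± 0.26, adjusted p = 0.0328), which passed the adjusted p but was just short of the ratio threshold. The call in P cells turned on replica 2 of day −2, the lower library: without it the log2 ratio was 0.998, just under the threshold. The ratios of P to C cells, −0.78 ± 0.26 at day −2 (adjusted p = 0.131) and −0.44 ± 0.26 at day 1 (adjusted p = 0.496) on the log2 scale, did not pass. DESeq2 gave an adjusted p of 0.0550 at day −2, with the ratio short of the threshold. With 1 library of P cells at day −2 left, the spread between its replicas is not measured. The ratio at day −2 was then −1.19 without replica 1 and −0.45 without replica 2, the latter under the ratio threshold. Without replica 2 of C cells it was −0.59 (adjusted p = 0.539).

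Klf5, which is induced by C/EBP factors and acts on the Pparg promoter, was at 12.8 and 15.5 CPM in C cells and 10.7 and 8.99 CPM in P cells at day −2. At day 1 it was at 28.1 and 23.7 CPM in C cells and 35.0 and 30.9 CPM in P cells. The P libraries were thus the lowest at day −2 and the highest at day 1. Induction raised Klf5 3.35-fold in P cells (log2 1.74 ± 0.20, adjusted p = 0.00178). In C cells the ratio was 1.83-fold (log2 0.87 ± 0.19, adjusted p = 0.0178), under the ratio threshold. It reached 1.003 without replica 2 of C cells at day 1 and 1.02 without replica 2 at day −2, and was then called. The difference between the 2 inductions, 0.87 ± 0.27 on the log2 scale, was not called (adjusted p = 0.234).

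Klf13, described as an early activator of Pparg, was at 44.3 and 43.0 CPM in C cells and 64.4 and 46.2 CPM in P cells at day −2, and at 76.3 and 82.1 CPM and 70.3 and 70.6 CPM at day 1. The conditions did not overlap, and P cells spanned less between the days. The ratio in C cells, 1.81-fold (log2 0.86 ± 0.18, adjusted p = 0.0156), passed the adjusted p only. In P cells it was 0.35 ± 0.18 on the log2 scale (adjusted p = 0.208).

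Klf6, which represses Dlk1, the preadipocyte factor known as Pref-1, had overlapping neighbours in the order of its condition means. Its libraries lay at 194 and 218 CPM in C cells and 179 and 228 CPM in P cells at day −2, and at 276 and 208 CPM and 243 and 249 CPM at day 1. Its log2 ratios were between −0.02 and 0.27 in the 4 comparisons, and none passed. Dlk1 itself was called higher at day 1 in both cell types, with log2 ratios of 1.05 and 1.70, the former just over the ratio threshold and not called with library totals or without replica 1 of C cells at day −2.

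Klf15, which promotes Slc2a4 (Glut4) expression in mature fat cells, was close to the floor. At day −2 its counts were 0 and 1 in the C libraries and 7 and 0 in the P libraries, and at day 1 they were 7 and 7, and 1 and 5. At day −2 the C and P libraries overlapped, and at day 1 both C libraries were above both P libraries. The summed counts of C cells, 14 at day 1 and 1 at day −2, gave a ratio of 13.23 with an exact 95% counting interval of 2.01 to 559, which leaves out the spread between replicas. In P cells the ratio of day 1 to day −2 was 0.895 (0.249 to 3.11). P cells stood at 0.482 of C cells at day 1 (0.152 to 1.34). In an edgeR fit without the filter the induction of Klf15 in C cells did not pass (adjusted p = 0.246).

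Among the restraining members, Klf2, which represses the Pparg promoter in preadipocytes, spanned the widest range of the tested members, 2.97 on the log2 scale between the lowest and the highest condition mean. It was at 3.67 and 4.56 CPM in C cells and 15.2 and 6.99 CPM in P cells at day −2. At day 1 it was at 39.9 and 26.9 CPM in C cells and 17.1 and 19.9 CPM in P cells. The libraries of the 4 conditions did not overlap, in the order C day −2, P day −2, P day 1, C day 1. Induction raised Klf2 8.11-fold in C cells (log2 3.02 ± 0.41, adjusted p = 0.00285), and this was called in every setting run, with log2 ratios of 2.74 to 3.29 when libraries were left out one by one. In P cells the ratio of 0.74 ± 0.38 on the log2 scale did not pass (adjusted p = 0.206). Without replica 1 of P cells at day −2 it was 1.39, and without replica 2 it was 0.29. In these fits the spread between the P replicas of day −2 was not measured.

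The difference between the 2 inductions of Klf2 was −2.28 ± 0.55 on the log2 scale, lower in P cells (adjusted p = 0.131). It was not called by edgeR and was called by DESeq2 (adjusted p = 0.00414) and by edgeR without the filter (adjusted p = 0.0531). With 1 library of P cells at day −2 left, the spread between its replicas, the widest of the 4 conditions, is not measured. The difference was then −1.65 without replica 1 and −2.74 without replica 2. It was not called without any single one of the other 6 libraries (−1.97 to −2.53, adjusted p = 0.291 to 0.542), nor with library totals (−1.94, adjusted p = 0.164), DESeq2 size factors (adjusted p = 0.128) or a filter of 10 counts in every library (adjusted p = 0.122).

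Klf3, a repressor that works through CtBP and lowers Cebpa, was at 28.6 and 25.8 CPM in C cells and 33.3 and 26.8 CPM in P cells at day −2, and at 25.7 and 24.2 CPM and 23.8 and 21.5 CPM at day 1. Its induction ratios on the log2 scale were −0.13 ± 0.17 in C cells (adjusted p = 0.629) and −0.41 ± 0.17 in P cells (adjusted p = 0.137). The day −2 libraries of both cell types were above those of day 1, and the test did not pass.

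Klf7, whose overexpression is known to block differentiation, was at 7.61 and 6.78 CPM in C cells and 9.11 and 7.21 CPM in P cells at day −2, and at 5.76 and 6.93 CPM and 6.24 and 4.43 CPM at day 1. All neighbouring condition means overlapped in their libraries. The induction ratio in P cells was −0.61 ± 0.25 on the log2 scale (adjusted p = 0.133).

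Klf10, the TGF-β-inducible early gene, was at 41.5 and 46.7 CPM in C cells and 25.4 and 24.0 CPM in P cells at day −2, and at 39.3 and 31.9 CPM and 35.5 and 29.9 CPM at day 1. The P libraries of day −2 stood below all others, and the C and P libraries of day 1 overlapped. The induction ratios were of opposite sign, −0.31 ± 0.17 in C cells (adjusted p = 0.235) and 0.40 ± 0.18 in P cells (adjusted p = 0.144) on the log2 scale. Their difference, 0.71 ± 0.25, was not called (adjusted p = 0.274).

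**Figure D2:**
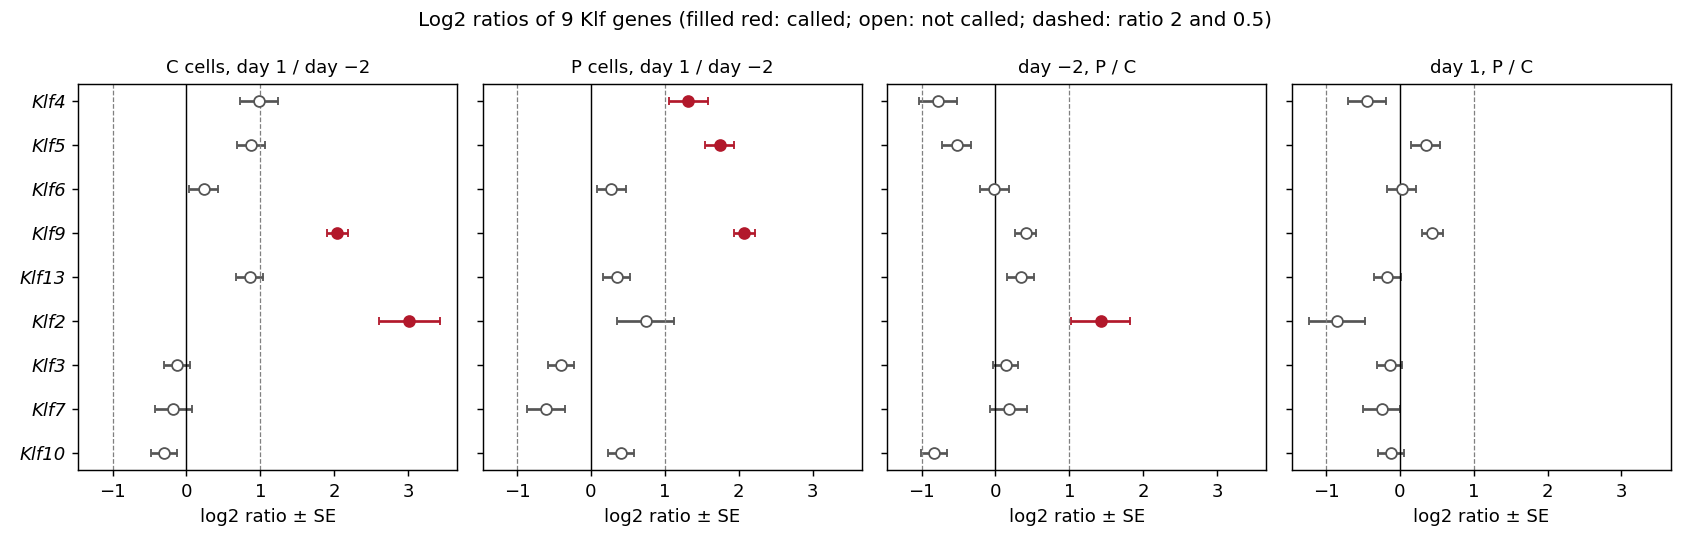
Log2 ratios of the 9 tested Klf genes with standard errors in the comparisons of day 1 with day −2 and of P with C cells; filled red points were called and open points were not, and dashed lines mark ratios of 2 and 0.5. Klf9 shows the same induction in C and P cells, 2.04 and 2.07, while Klf2 shows 3.02 and 0.74.

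The comparison of P with C cells asks how cells with Prep1 down-regulated differed from control cells at a given day. No other Prep1 shRNA was sequenced, so other differences between the infected cells cannot be told apart from lower Prep1. The comparison shares its libraries with the inductions, so the values are set side by side and are not separate evidence. At day −2 1 of the 9 members was called higher, Klf2, against 4.83% of all genes, and none lower, against 2.15%. Klf2 was 2.69-fold higher in P cells (log2 1.43 ± 0.40, adjusted p = 0.0913). Klf10 was at 0.560 of C cells (log2 −0.84 ± 0.18, adjusted p = 0.0443) and passed only without the ratio threshold, as 2 members and 11.3% of all genes did. The other members had log2 ratios of −0.78 to 0.41. The median of the members was 0.14 and that of all genes 0.01.

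The call of Klf2 at day −2 was lost without any one of 3 libraries. Without replica 1 or 2 of C cells the log2 ratio was 1.27 (adjusted p = 0.421) or 1.59 (adjusted p = 0.387), and in a fit of these 2 conditions alone it was 1.41 (adjusted p = 0.342). Without replica 1 of P cells, the higher one, it was 0.78, under the ratio threshold, and without replica 2 it was 1.89. In these fits the spread between the P replicas was not measured. All settings in the plot of Klf2 at day −2 gave a higher value in P cells. Calls over all genes fell too without either replica of C cells, and from 6.98% to 0.637% with the 2 conditions alone. Why the Klf2 call was lost was not tested. When libraries were scaled by their totals, Klf2 was not called (adjusted p = 0.111) and Klf4 and Klf10 were called lower, at log2 ratios of −1.003 and −1.03. That scaling moved the median of all genes to −0.18, and relative to it the values were −0.83 and −0.85.

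**Figure D3:**
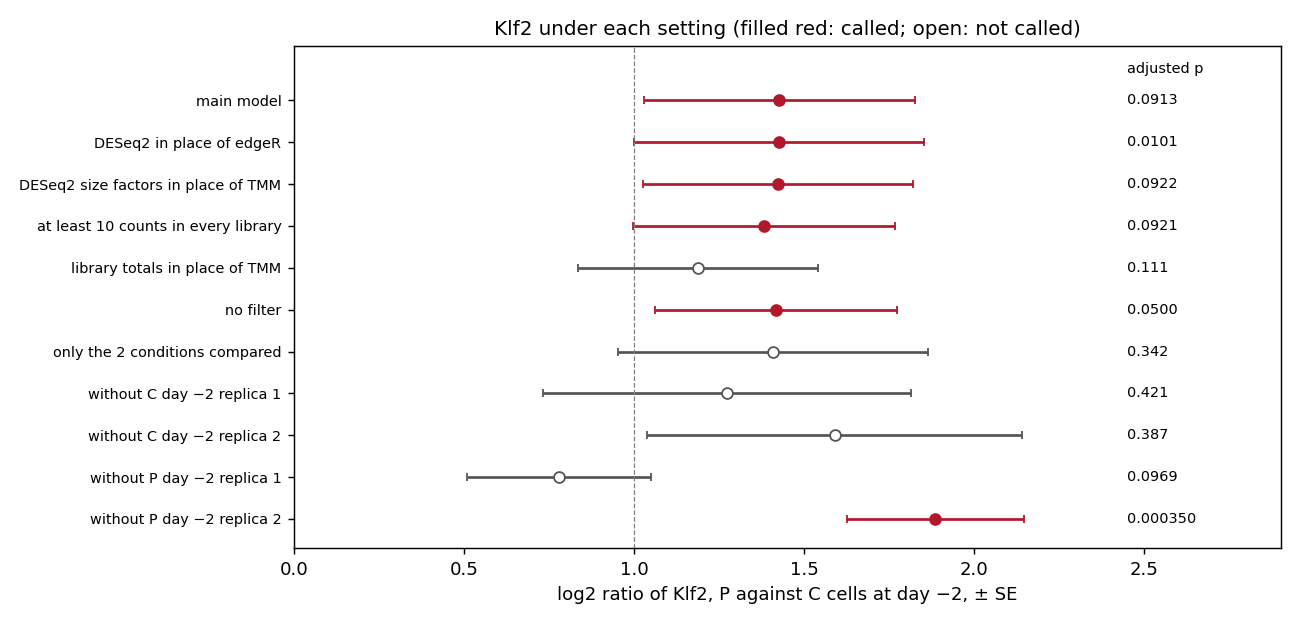
Log2 ratio of Klf2 (horizontal axis, with standard error) between P and C cells at day −2 under the main model and 10 alternatives, with adjusted p-values at the right; filled red points were called, and the dashed line marks a ratio of 2. All 11 estimates are above 0 and lie between 0.78 and 1.89. Not drawn are fits with the replica number as a block, which gave 1.36 (adjusted p = 0.151) and did not call Klf2. Blocks with day 1 numbers crossed gave 1.40 and 1.34, also not called.

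At day 1 none of the 9 members was called between P and C cells, against 1.83% of all genes higher and 2.23% lower (6.15% passed with any ratio). At an unadjusted p under 0.05 there was 1 member, Klf9, at rank 1247 of 13339 genes by edgeR's p. The gene at rank 1935 was still under that limit. DESeq2 called 0, against 5.41% of all genes, with Klf9 at an adjusted p of 0.0771 but under the ratio threshold. Klf2 was at a log2 ratio of −0.85 ± 0.38 (adjusted p = 0.335), with both P libraries below both C libraries, and Klf5 was at 0.35 ± 0.19 (adjusted p = 0.455). The Klf2 ratio of P to C cells was thus of opposite sign on the 2 days. The median of the members was −0.14 against 0.01.

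Whether the 2 cell types responded unequally was read from the interaction term, with the adjusted p threshold of 0.1 and no threshold on its size. By edgeR 0 of 9 members were called, against 2.37% of all genes. At an unadjusted p under 0.05 there were 3, Klf2, Klf5 and Klf10, at ranks 452, 887 and 1167 of 13339 genes by edgeR's p. The gene at rank 1878 was still under that limit, so these 3 are no result about the members. DESeq2 called 1, Klf2, against 6.97% of all genes. Without replica 1 of P cells at day −2 there were 4 calls (Klf2, Klf4, Klf5 and Klf10), when 10.6% of all genes were called. Without replica 2 there were 5 (Klf2, Klf3, Klf5, Klf10 and Klf13), when 60.0% were.

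The members differed from each other in the shape of their condition means. The range on the log2 scale was 2.97 for Klf2, 2.48 for Klf9, 1.80 for Klf4 and 1.74 for Klf5, and 0.28 to 0.86 for the other 5 tested members. Klf3 and Klf7 were the pair with the nearest profiles, at a root-sum-square distance of 0.163 over the 4 centred condition means. Klf4 and Klf5 were each nearest to one another among members, at 0.609.

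Genes of nearest profile were sought for Klf2, Klf9 and Klf4 among 10881 genes with a mean of at least 50 counts. Klf2 had as nearest genes Ifitm3 and Dhx58, both interferon-inducible, and Pappa, a protease of the IGF system, at distances of 0.148, 0.211 and 0.229. Klf9 had Aldh6a1, an enzyme of valine breakdown, Ghr, the growth hormone receptor, and Zhx3, at 0.152, 0.184 and 0.202. Klf4 had Lyplal1, Dennd6a and Inpp5k, at 0.0763, 0.125 and 0.143. These distances are a description over 4 conditions.

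**Figure D4:**
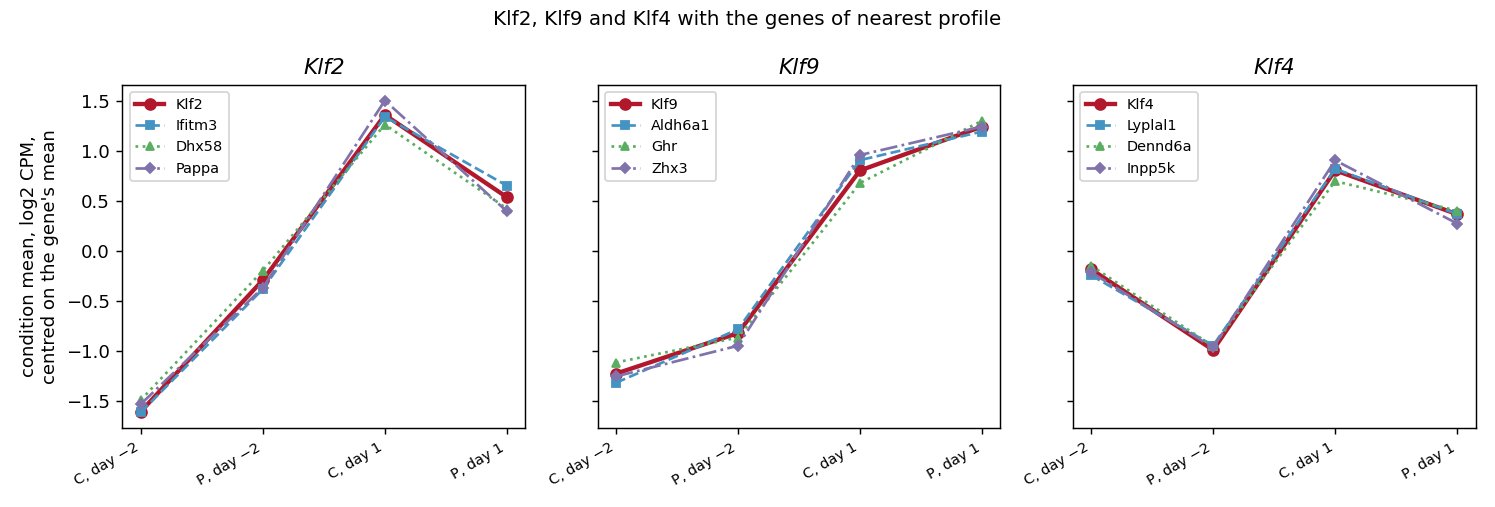
Condition means of log2 CPM, centred on each gene's own mean, for Klf2, Klf9 and Klf4 and the 3 genes of nearest profile to each; lines join the 4 conditions only to guide the eye. Klf2 and its neighbours are lowest in C cells at day −2 and highest in C cells at day 1.

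The rest of the Sp/Klf family has the same kind of zinc fingers. Of its 16 genes in the table, 8 were tested (Klf8, Klf11, Klf12, Klf16 and Sp1 to Sp4). None was called higher on induction, where 10.7% of all genes were in C cells and 7.65% in P cells. For 8 genes, 0 calls lie near these shares. Called lower were 2 in C cells and 1 in P cells, where 9.68% and 10.4% of all genes were. The median log2 ratio of the 8 was −0.27 for C cells and 0.11 for P cells. Klf8 was called lower in C cells (log2 −2.60 ± 0.54, adjusted p = 0.0140), on 42 and 34 counts at day −2 and 9 and 4 at day 1. Sp2 was called lower in C cells (−1.06 ± 0.22, adjusted p = 0.0144) and in P cells (−1.01 ± 0.22, adjusted p = 0.0205). In C cells Klf8 was not called without replica 1 of day −2, Sp2 not without replica 2 of day −2, and neither without replica 2 of day 1. In P cells Sp2 was not called without replica 1 of day −2 or without either replica of day 1. None was called between P and C cells by edgeR or DESeq2. Of all genes 6.98% and 9.48% were at day −2, and 4.06% and 5.41% at day 1. At an unadjusted p under 0.05 there was 1 at day −2, Klf8, at rank 3325 of 13339 genes by edgeR's p, and 0 at day 1. Sp1 and Sp3, the general GC box activators, differed between the replicas of P cells at day −2, with 41.5 and 100 CPM for Sp1 and 31.5 and 75.9 CPM for Sp3. Without replica 2 of that condition 4 of the family, Klf8, Sp1, Sp3 and Sp4, were called lower in P cells at day −2, when 31.3% of all genes were called in either direction.

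The C/EBP factors and other partners of the Klf proteins formed a list of 19 tested genes. In C cells 7 were called higher and 4 lower, where 10.7% and 9.68% of all genes were. In P cells these were 8 and 2, where 7.65% and 10.4% of all genes were. The median log2 ratios were 0.90 and 0.49. Without replica 1 of C cells at day −2, 6 were called higher and 1 lower in C cells. Cebpa rose most in C cells among genes with counts in all libraries, from 0.757 and 0.842 to 16.4 and 16.9 CPM (log2 4.37, adjusted p = 0.000685), followed by Cebpd (3.02), while Ccnd1, a cyclin of G1 phase, fell (−3.15). In P cells Adipoq, the fat cell hormone adiponectin, rose by 6.08 on the log2 scale and Pparg by 1.89 (adjusted p = 0.00433), and Ccnd1 fell (−2.27). Slc2a4 counts in C cells were 5 and 4 before induction and 0 in both libraries of day 1, at least 1.58-fold lower against a floor of 3 counts per library. In P cells at day 1 Slc2a4 was at least 5.85-fold higher than in C cells, measured against the same floor.

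At day −2 8 of the 19 were called higher in P cells and none lower, against 4.83% and 2.15% of all genes. Among the 8 were Fabp4 (log2 3.44), Cebpa (2.75) and Cebpd (2.63). Adipoq was also called, on 1 count in each C library and 5 and 7 counts in the P libraries. Fewer of the 19 were called with either replica of C cells left out, and only Fabp4 and Lpl with these 2 conditions alone. Why fewer were called was not tested. Calls over all genes at day −2 fell as well, from 6.98% to 1.38% and 1.34% without replica 1 or 2 of C cells and to 0.637% with these 2 conditions alone. Egr2, the partner of Klf4, was at 3.87 and 4.70 CPM in C cells and 16.8 and 8.88 CPM in P cells, and its condition means had the same order as those of Klf2, although its P libraries of both days overlapped. At day 1 Adipoq, Slc2a4, Fabp4 (6.01) and Lpl (1.60) were called higher, where 1.83% of all genes were. In the interaction 6 were called, against 2.37% of all genes. There were 0 or 1 when a library of C cells or of P cells at day 1 was left out, when 0.228% to 0.493% of all genes were called. There were 10 without replica 1 and 15 without replica 2 of P cells at day −2, when 10.6% and 60.0% were.

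Cofactors and enzymes of Klf protein turnover gave 12 tested genes. Of these, 1 was called lower in each induction, where 9.68% of all genes were in C cells and 10.4% in P cells. At day −2 1 was called higher in P cells, where 4.83% were. Fhl3, a LIM protein that binds Klf3, was called lower by induction in C cells (−1.70 ± 0.28, adjusted p = 0.00566) and in P cells (−2.77 ± 0.29, adjusted p = 0.00134). Kat2b, an acetyltransferase, was called higher in P cells at day −2 (1.01 ± 0.15, adjusted p = 0.0137), at a ratio just over the threshold, and was not called without replica 1 or 2 of C cells or without replica 1 of P cells. At day 1 edgeR and DESeq2 called 0 between P and C cells, against 4.06% and 5.41% of all genes. At an unadjusted p under 0.05 there were 2, Kat2b and Fhl3, at ranks 954 and 1612 of 13339 genes by edgeR's p. The other 10, with the corepressors Ctbp1 and Ctbp2 and the ubiquitin ligase parts Wwp1 and Fbxw7, were not called in any of the 4 comparisons.

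Early targets of the inducers were read beside the members. Of 6 glucocorticoid targets 5 were called higher in both cell types, where 10.7% of all genes were in C cells and 7.65% in P cells. Their log2 ratios were 2.50 (Dusp1) to 4.29 (Zbtb16) in C cells and 1.65 (Dusp1) to 5.26 (Zbtb16) in P cells. Per1 was the only one of them called at day −2, higher in P cells (1.14, adjusted p = 0.0988), where 4.83% of all genes were. It was not called without replica 1 or 2 of C cells or replica 1 of P cells. Of 6 cAMP targets, all were called higher in C cells and 3 (Crem, Pde4d and Sik1) in P cells, where 10.7% and 7.65% of all genes were. In P cells all 6 ratios were above 0, and 5 passed without the ratio threshold, as 31.4% of all genes did. In the interaction 2, Nr4a1 and Pde4d, were called lower in P cells, against 2.37% of all genes in either direction. With library totals 1, Nr4a1, was, and neither was called in every setting. At day −2 Fos (2.63), Nr4a1 (1.57) and Pde4b (1.13) were called higher in P cells, where 4.83% of all genes were. These calls were lost without replica 1 or 2 of C cells, where calls over all genes fell as well. With the 2 conditions of day −2 alone 0 of the cAMP targets were called, against 0.637% of all genes in place of 6.98%. The part of these signals in the values of the Klf genes was not tested.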

How the data were processed

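The authors trimmed artifacts (FASTX-Toolkit) from Ion Torrent reads, mapped these on mm9 by TopHat2 2.0.9 and counted them per gene of the UCSC refGene annotation. The deposited values are these whole-number counts, not normalized. How reads of several places and the strand were handled is not given in the sources used here. Symbols came from RefSeq (GRCm38.p6), for 23929 of 24013 genes.

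The counts were tested in R 4.3.3 with edgeR 4.0.16 (filterByExpr, TMM, 1 mean per condition over all 8 libraries, two-sided quasi-likelihood test, p-values adjusted over all 13339 genes). CPM used TMM-scaled sizes, and log2 CPM had a prior count of 2. Scripts were tested on simulated data. Alternatives were DESeq2 1.42.0, other scaling, filters and thresholds, the 2 conditions alone, each library left out and a replicate block. With 2 replicas an exact permutation test cannot go below p = 0.333. The study calls the replicas biological. Neither it nor the labels say how the cultures were kept apart, so p-values measure the spread between these samples.

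The members and lists were chosen with earlier results of these data known. All members were named, and from the lists the called genes, for partners and cofactors those with the 4 largest ratios. Dlk1, Egr2, Per1, Sp1, Sp3, Sp4, single marker genes and cofactors not called were named after their values were seen. Levels were not compared between genes, since transcript lengths were not used here.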

Additional observations from a re-analysis of the deposited data

How the results depend on the processing

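The inductions of Klf9 in both cell types, of Klf2 in C cells and of Klf5 in P cells were called under every alternative run. Of the ratios of single members, 571 kept their direction and side of the threshold, 18 passed it newly, 9 no longer passed and 14 changed sign. With no ratio threshold 5 members were called in the induction of C cells and 2 at day −2, where 35.6% and 11.3% of all genes were. At day −2, 0 were called at an adjusted p under 0.05. With library totals 2 were, against 6.13% of all genes, and with the 2 conditions alone 0, against 0.637%. In the interaction 1 was called with DESeq2, against 6.97% of all genes, and 1 with no filter, against 1.85%. Leaving out a library gave 2 to 3 members in the induction of C cells, 2 to 4 in that of P cells, 0 to 1 at day −2, 0 at day 1 and 0 to 5 in the interaction. The share of all genes called also moved when a library was left out, as given above for the interaction. The cause was not tested.

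Changes of sign touched values close to 0 that were not called. With library totals Klf3 was at 0.024 in the interaction and −0.060 at day −2, and Klf7 at −0.022 at day −2. With libraries left out one by one, the log2 ratio at day −2 lay between −0.015 (without replica 1 of P cells) and 0.29 for Klf3, and between −0.21 and 0.15 (without replica 1 of P cells) for Klf6, which was at 0.07 without replica 2 of C cells. At day 1 Klf6 lay between −0.18 (without replica 2 of C cells) and 0.21, and was at −0.0011 without replica 2 of P cells, and Klf10 lay between −0.28 and 0.0050 (without replica 1 of C cells). In the interaction Klf6 lay between −0.15 (without replica 1 of P cells at day −2, or replica 2 of C cells at day 1) and 0.24, and was at −0.05 without replica 2 of C cells at day −2. Klf9 lay there between −0.050 (without replica 2 of P cells at day −2) and 0.092, and was at −0.03 without replica 1 of C cells at day −2.

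Deviations from the condition means were compared between libraries of equal number, with correlations between conditions of −0.355 to 0.209 over all genes and −0.752 to 0.438 over the 5600 well-expressed genes. In both, only some pairs were over 0.1, so the numbers were not taken to pair them. With the number as a block, 2, 3, 0, 0 and 0 members were called in the 2 inductions, at day −2, at day 1 and in the interaction, and 597 genes in all at day −2 in place of 931. Of the partner list 0 were called in the interaction under the block, in place of 6. The share of all genes called there fell from 2.37% to 0.877%. Crossed blocks, chosen after seeing the data, gave the same 0 members at day −2. With the day 1 numbers of C and P cells crossed, 4 partners were called in the interaction and 1026 genes in all at day −2. With those of P cells alone crossed, these were 0 and 674. Over all genes at day −2, 81 were called with these 2 conditions alone and 4380 without replica 2 of P cells. The depth left Klf15 untested, and 2 replicas limit every value.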
